A study of Mus musculus with 10 samples.

Results

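Radial glia and neural progenitor markers were examined in midbrain tissue from mice at embryonic day 14.5, as a set of 10 genes chosen by name: Sox1, Sox2, Sox3, Sox9, Nes, Vim, Fabp7, Slc1a3, Hopx and Dbi. Each was found by its symbol among the 30935 gene IDs of the count table, and all 10 were among the 15288 genes with enough counts to be tested. The 5 wild-type libraries (Rbfox1 +/+) were numbered 1, 2, 4, 5 and 6. The 5 deletion libraries (Rbfox1 ΔHAR.321/ΔHAR.321) were numbered 2, 3, 4, 5 and 6 and came from embryos homozygous for the loss of HAR.321, a human accelerated region in the locus of the splicing regulator Rbfox1. The samples are described as independent biological samples; the labels name no litter, strain background, other allele or method of removing the element, and these were not analysed here. The totals lay between 16246892 and 20255728 counts per library. Levels are given in CPM, counts relative to the size of the library as scaled by the TMM method, and a log2 fold change is deletion against wild-type throughout.

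Radial glia are the neural stem cells of the embryonic brain. Their bodies line the ventricle, their long processes reach the pial surface, and they divide to renew themselves or to give rise to neurons and later to glia. The SOXB1 transcription factors Sox1, Sox2 and Sox3 hold them in the progenitor state, Sox9 acts in stem cell formation and in the turn towards glia, and nestin (Nes) and vimentin (Vim) form their intermediate filaments. Fabp7 (brain lipid-binding protein) and Slc1a3 (the glutamate transporter GLAST) are markers of the radial glial state, Hopx is a homeodomain protein without DNA binding that marks some radial glia and neural stem cells, and Dbi encodes the acyl-CoA-binding protein, which is abundant in progenitors and glia.

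Dbi was lower in the deletion group, and no other marker passed the test. Of the 10 genes, 1 passed edgeR's quasi-likelihood test at a Benjamini-Hochberg adjusted p under 0.05, against 9 of all 15288 genes tested (0.0589%). In direction, 8 of the 10 had a lower mean and 2 a higher one, and their median log2 fold change was -0.10, beside a median of -0.0024 and 50.7% lower genes over all genes tested. An unadjusted p under 0.05 was reached by 2 markers, Dbi and Sox2, and by 10.5% of all genes tested. The tissue was whole midbrain, so fewer progenitors and less of a transcript per progenitor cannot be told apart.

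**Figure D1:**
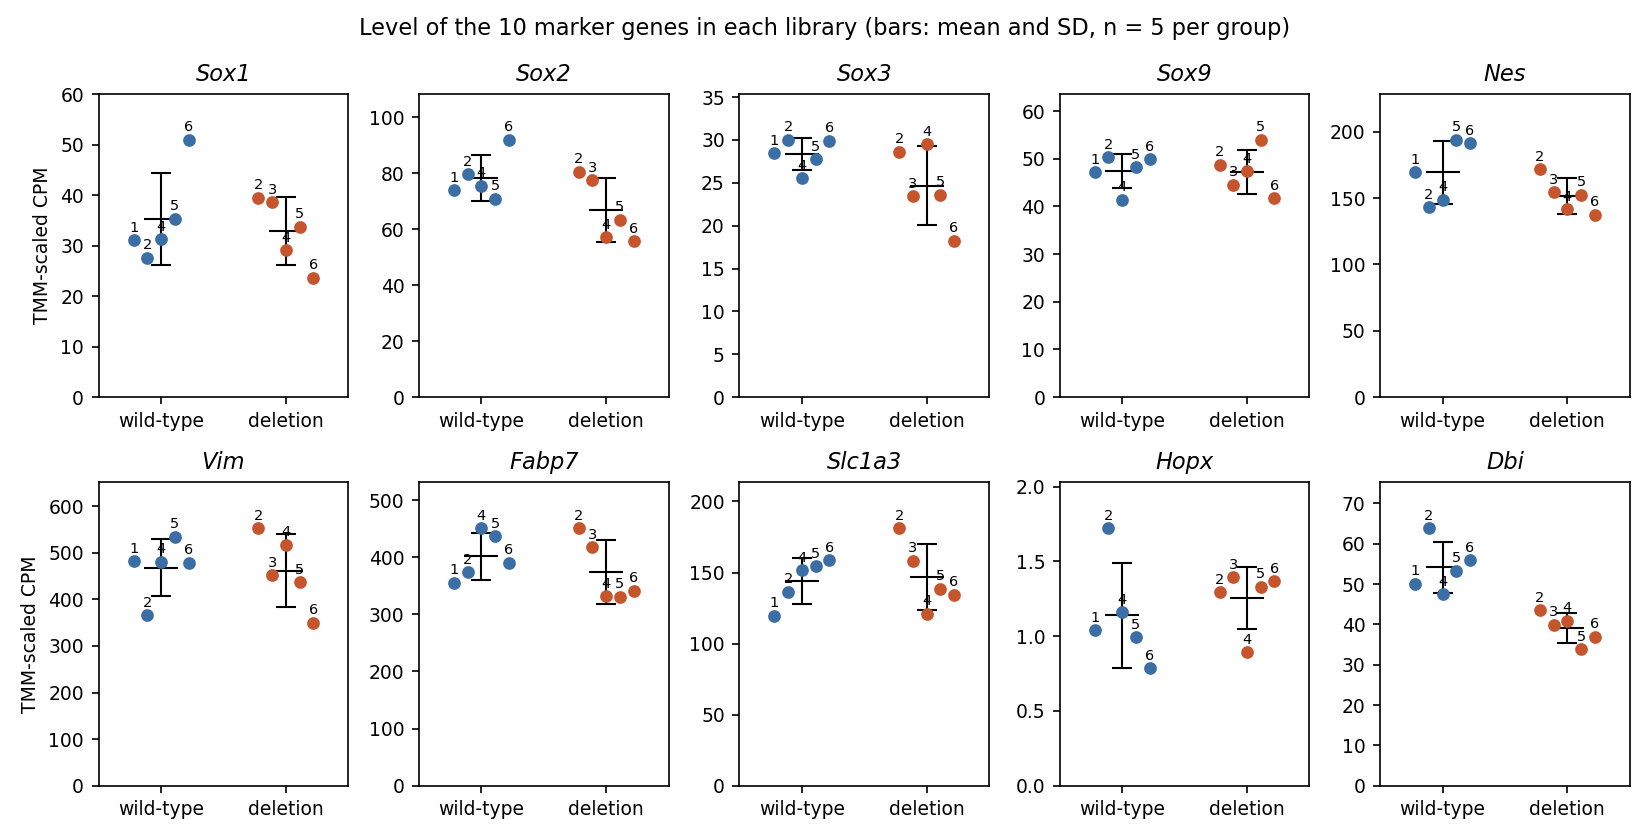
Level of each of the 10 marker genes (TMM-scaled CPM, linear axes from 0) in each library. Points are libraries with their replicate number, and bars give the mean and SD of 5 libraries per genotype. The Dbi points of the 2 genotypes are separate (33.9 to 43.6 against 47.5 to 63.8 CPM), while those of every other marker overlap.

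Dbi binds long-chain acyl-CoA esters in the cytosol, and peptides cut from it act on GABA-A receptors, from which its name, diazepam binding inhibitor, comes. In the wild-type libraries 1, 2, 4, 5 and 6 it stood at 50.1, 63.8, 47.5, 53.3 and 55.9 CPM. In the deletion libraries 2, 3, 4, 5 and 6 it stood at 43.6, 40.0, 40.9, 33.9 and 37.0 CPM. Every deletion library lay below every wild-type library, and wild-type 2 was the highest of all. Groups that did not overlap occurred in 1 of the 10 markers and in 2.49% of all genes tested (1.26% with the deletion group below). The mean fell from 54.1 ± 6.29 to 39.1 ± 3.72 CPM (SD, n = 5 each). On the log2 scale this was -0.47 (SE 0.09, 95% interval -0.65 to -0.29, edgeR adjusted p = 0.0474). As a share of the wild-type level this is a change of -27.8% (95% interval -36.5% to -17.9%). By its p-value Dbi ranked 9 among all genes tested, the last to pass.

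The exon-free sequence upstream of Dbi is shown because Dbi was the marker that differed. It is the longest stretch within 250 bases upstream of the RefSeq start that no annotated exon covers, 108 bases at chr1:120121079-120121186 (RefSeq, GRCm38.p6, minus strand). Capitals mark a CCAAT box (CCAAT or its reverse complement), which 19.9% of all annotated promoters hold in the 108 bases before their start.
Dbi: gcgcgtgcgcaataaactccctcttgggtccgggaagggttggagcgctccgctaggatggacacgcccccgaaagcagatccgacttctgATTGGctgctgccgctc
A GC box (GGGCGG) and a TATA box (TATAAA), also searched on both strands, had 0 matches in these 108 bases. The overlapping protein-coding gene 3110009E18Rik had 46 to 78 counts per library, and its counts over all libraries were 6.55% of those of Dbi; how many reads they share was not tested.

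The Dbi call stood close to the threshold. It was lost when any of 8 of the 10 libraries was left out (edgeR adjusted p up to 0.196). It was kept without wild-type 2 (edgeR adjusted p = 0.0416, with 0.57% of all genes called) or deletion 4 (edgeR adjusted p = 0.00416, with 2.31% called). Deletion 4 was the deletion library least like the others of its group, by the values given under processing. The Dbi log2 fold change stayed between -0.52 and -0.41 in these fits. DESeq2 also called it (log2 fold change -0.47, adjusted p = 0.000399, among 3.28% of genes called), and limma-voom did not (-0.47, adjusted p = 0.066, with 0% of genes called).

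Transcript length moved with this result. Dbi has the shortest transcript of the 10 (660 bases for the longest annotated form). Of 531 tested genes under 1 kb, 77.0% were lower in the deletion group (median log2 fold change -0.16), whereas 902 genes over 8 kb had a median of 0.09. With each library's trend on length removed, the Dbi fold change became -0.29 on the log2 scale (SE 0.09, edgeR adjusted p = 0.414, with 0% of all genes called), and with GC content as well -0.31 (SE 0.08, adjusted p = 0.115, with 0.118% called). The part of transcript length in the Dbi difference was not tested beyond these fits. After the length trend was removed, Dbi ran from 5.26 to 5.53 log2 CPM in the deletion and from 5.48 to 5.92 log2 CPM in the wild-type libraries, so the groups then overlapped. One deletion library had a length trend like those of the wild-type group: deletion 4 had a slope of -0.055 log2 CPM for each doubling of length, within the wild-type range of -0.061 to -0.010. Dbi stood at 40.9 CPM in that library, below the lowest wild-type value of 47.5 CPM. Over the 10 libraries, log2 CPM of Dbi against this slope had r = -0.58 and rho = -0.50. Without the 2 libraries farthest from the median slope, r was -0.22. These values are descriptions without a test.

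**Figure D2:**
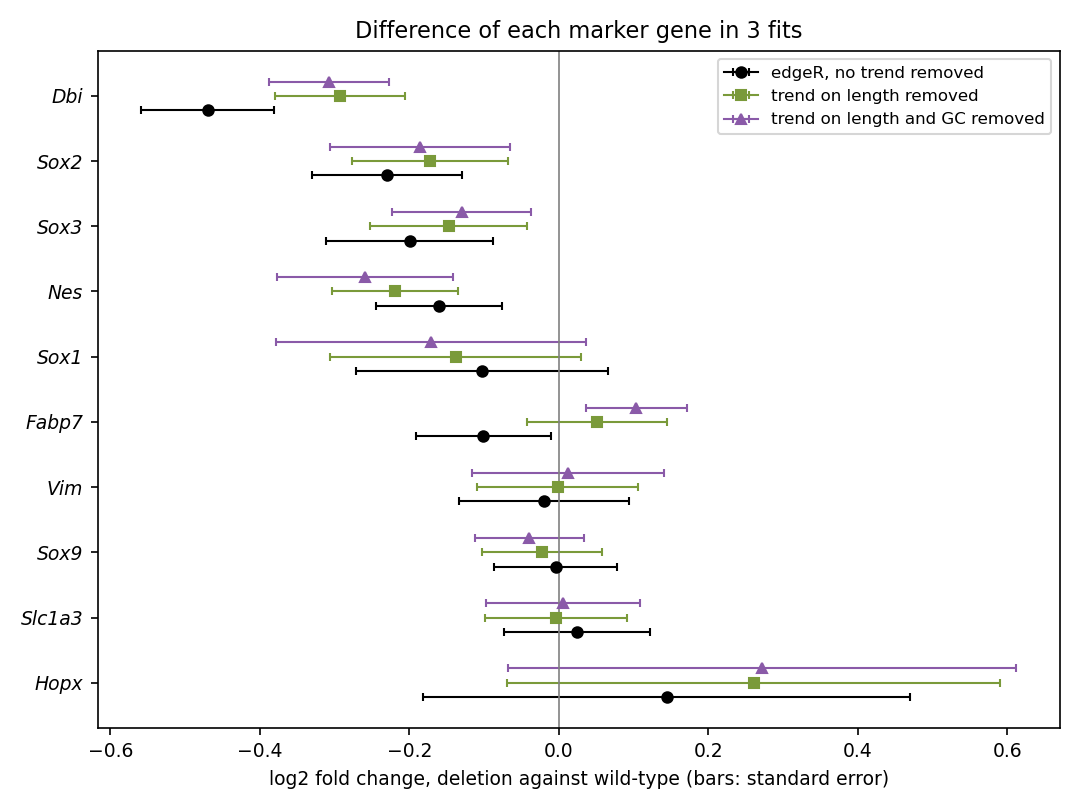
Log2 fold change of each marker gene, deletion against wild-type, in the fit without a trend removed and in the fits with each library's trend on transcript length, or on length and GC content, removed. Bars are standard errors from 5 libraries per genotype. Dbi lies farthest below 0 in all 3 fits (-0.47, -0.29 and -0.31), and Fabp7 moves from -0.10 to 0.05 and 0.10.

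The SOXB1 genes had lower means in the deletion group, none past the threshold in edgeR. Sox2, which is needed for self-renewal of neural stem cells, stood at 74.0, 79.6, 75.5, 70.9 and 91.9 CPM in wild-type 1, 2, 4, 5 and 6. In deletion 2, 3, 4, 5 and 6 it stood at 80.6, 77.4, 57.2, 63.4 and 55.8 CPM. Deletion 4, 5 and 6 lay below all wild-type libraries, while deletion 2 and 3 lay within their range. The means were 78.4 ± 8.18 and 66.9 ± 11.5 CPM (SD, n = 5 each), and the log2 fold change was -0.23 (SE 0.10, 95% interval -0.44 to -0.02, edgeR adjusted p = 0.415).

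Sox3, the X-linked member of this group, ran from 25.5 to 30.0 CPM among wild-type and from 18.2 to 29.5 CPM among deletion libraries, with its lowest value in deletion 6. Its log2 fold change was -0.20 (SE 0.11, 95% interval -0.43 to 0.03, edgeR adjusted p = 0.566). Y-linked genes summed to between 197 and 270 CPM in 2 wild-type and 3 deletion libraries and to at most 1.36 CPM in the others. With the Y-linked level as a covariate, the Sox3 fold change was again -0.20 on the log2 scale (SE 0.12, adjusted p = 0.554).

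Sox1, expressed from the neural plate onwards, was the most variable of the SOX genes among the markers. It stood at 31.1, 27.6, 31.3, 35.3 and 51.0 CPM in wild-type 1, 2, 4, 5 and 6 and between 23.6 and 39.5 CPM in the deletion libraries. Wild-type 6 stood above all others. The log2 fold change was -0.10 (SE 0.17, 95% interval -0.46 to 0.26, edgeR adjusted p = 0.889), and it was 0.07 without wild-type 6.

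Sox9 had the smallest fold change of the 10 markers in this fit: wild-type libraries averaged 47.4 ± 3.60 CPM and deletion libraries 47.3 ± 4.61 CPM (SD, n = 5 each). Its log2 fold change was -0.0040 (its sign turned in several alternative fits), with a 95% interval of -0.17 to 0.17. Sox1 and Sox2 lie within the long noncoding genes Sox1ot and Sox2ot, and strand use in the counting is not given in the sources used here. How reads in shared stretches were divided between the genes was not tested. Over all libraries, Sox1ot had 70.5% as many counts as Sox1 and Sox2ot 36.4% as many as Sox2.

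The sequence before the Sox2 start is shown beside that of Nes, a marker filament gene, because Sox1 varied with each of them across libraries, as described further on. Sox2 and Nes were less close to each other. Both are the stretches of up to 250 bases upstream of the RefSeq start that no annotated exon covers (GRCm38.p6, plus strand): chr3:34649745-34649994 for Sox2, of 250 bases, and chr3:87970843-87971077 for Nes, of 235 bases. Capitals mark GC boxes (GGGCGG) and CCAAT boxes on either strand.
Sox2: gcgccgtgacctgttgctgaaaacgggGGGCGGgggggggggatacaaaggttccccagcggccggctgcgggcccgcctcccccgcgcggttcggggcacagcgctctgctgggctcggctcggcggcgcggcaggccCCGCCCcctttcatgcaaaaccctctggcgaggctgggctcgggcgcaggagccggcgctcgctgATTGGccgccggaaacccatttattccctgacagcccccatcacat
Nes: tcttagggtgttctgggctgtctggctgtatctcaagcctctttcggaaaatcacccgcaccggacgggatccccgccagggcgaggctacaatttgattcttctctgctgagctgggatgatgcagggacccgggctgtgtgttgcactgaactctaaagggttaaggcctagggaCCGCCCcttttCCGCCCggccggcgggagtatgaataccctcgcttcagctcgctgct
The Sox2 stretch held 2 GC boxes and 1 CCAAT box, and the Nes stretch 2 GC boxes and 0 CCAAT boxes. Among all annotated promoters, 32.7% held a GC box and 33.8% a CCAAT box in 250 bases. Their GC content was 72.0% and 58.7%. A core SOX motif (AACAAT) had 0 matches in either, against 9.42% of all promoters in 250 bases; this says only that these letters are not in the window.

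The filament genes did not pass the test either. Nes, whose protein is the classical marker of neural stem cells, stood at 170 CPM in wild-type 1, 143 in wild-type 2, 149 in wild-type 4, 194 in wild-type 5 and 191 in wild-type 6. The deletion libraries 2, 3, 4, 5 and 6 stood at 172, 154, 142, 153 and 138 CPM, so that 4 of 5 lay below the wild-type mean and the groups overlapped. The log2 fold change was -0.16 (SE 0.08, 95% interval -0.34 to 0.01, edgeR adjusted p = 0.529). The longest annotated Nes transcript has 6126 bases. With the length trend removed, Nes moved the other way from Dbi, to -0.22 (SE 0.08, edgeR adjusted p = 0.551). It moved to -0.26 with GC content as well (SE 0.12, edgeR adjusted p = 0.531).

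The range of Vim within each genotype was far wider than the difference of the means. It stood at 482, 366, 481, 535 and 479 CPM in wild-type 1, 2, 4, 5 and 6 and at 553, 452, 518, 438 and 350 CPM in deletion 2, 3, 4, 5 and 6. Wild-type 2 and deletion 6 were the low libraries. The log2 fold change was -0.02 (SE 0.11, 95% interval -0.26 to 0.22, edgeR adjusted p = 0.975).

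Fabp7, which carries fatty acids in radial glia, ranged from 356 to 451 CPM in the wild-type and from 331 to 450 CPM in the deletion group. Deletion 4, 5 and 6 lay below all wild-type libraries, and deletion 2 lay close to the highest of them. Its log2 fold change of -0.10 (SE 0.09, 95% interval -0.29 to 0.09, edgeR adjusted p = 0.758) changed sign with the length trend removed (0.05, SE 0.09); at 880 bases its transcript is the second shortest of the markers. Slc1a3, which clears glutamate from the extracellular space, ranged from 120 to 159 CPM in the wild-type and from 121 to 181 CPM in the deletion group, and its log2 fold change was 0.02 (SE 0.10, 95% interval -0.18 to 0.23).

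The stretch before Fabp7 is shown because Fabp7 and Slc1a3 had the highest Pearson's r of any pair of markers. It covers chr10:57784673-57784880 (RefSeq, GRCm38.p6, plus strand), 208 bases free of annotated exons, and capitals mark its 2 CCAAT boxes. A CCAAT box was found in 30.1% of all annotated promoters over the same length.
Fabp7: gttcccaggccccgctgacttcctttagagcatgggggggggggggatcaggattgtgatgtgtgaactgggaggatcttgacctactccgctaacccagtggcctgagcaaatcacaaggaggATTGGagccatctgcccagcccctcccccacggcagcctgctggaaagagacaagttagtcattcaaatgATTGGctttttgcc
The Fabp7 stretch had 0 GC boxes. Of the 7 markers with such a stretch, Nes was the one without a CCAAT box.

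Hopx was barely detected, with 15 to 28 counts per library. It ranged from 0.786 to 1.72 CPM in the wild-type and from 0.893 to 1.40 CPM in the deletion group. Its interval was wide (log2 fold change 0.14, SE 0.33, 95% interval -0.53 to 0.82, edgeR adjusted p = 0.929) and holds both a modest rise and a modest fall.

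Levels were compared between markers per kilobase of the longest annotated protein-coding transcript. In the wild-type group Fabp7 was the highest at 456 ± 46.5 CPM per kb, followed by Vim at 214 ± 28.2 and Dbi at 95.1 ± 11.1 CPM per kb (SD, n = 5). These 3 did not overlap with each other or with the next marker in either genotype. Sox2 (38.1 ± 3.98 CPM per kb), Slc1a3 (34.6 ± 3.87) and Nes (27.7 ± 3.83) formed a middle group in which neighbours overlapped. Sox3 (13.7 ± 0.893), Sox9 (11.5 ± 0.871) and Sox1 (7.30 ± 1.90) were lower, with overlap between Sox9 and Sox1 and none between Sox3 and Sox9, and Hopx was lowest at 0.904 ± 0.279 CPM per kb. In the deletion group Sox2 (32.5 ± 5.57 CPM per kb) and Slc1a3 (35.2 ± 5.63) changed places, and the ranges of these neighbours overlapped there too. Other overlaps differed between the genotypes. Among deletion libraries Sox3 (8.83 to 14.3 CPM per kb) and Sox9 (10.1 to 13.1) overlapped. Sox9 and Sox1 (4.89 to 8.17) did not, nor did Slc1a3 and Nes.

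Some libraries were high or low for many markers at once. Deletion 2 held the highest value of its group for 7 of the 10 markers, and deletion 6 the lowest for 6 of them. Together the markers made up 0.159% of the counts in deletion 2 and 0.113% in deletion 6, with the wild-type libraries between 0.127% and 0.156%. Without deletion 6, 6 of the 10 markers had a lower mean in the deletion group and their median log2 fold change was -0.04. The Sox2 fold change was then -0.17 on the log2 scale (SE 0.10), that of Sox3 -0.11 (SE 0.10) and that of Sox1 -0.0037 (SE 0.15).

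Most markers varied together across the 10 libraries. Pearson's r of log2 CPM was above 0 in 37 of 45 pairs and above 0.5 in 14, with a median of 0.36; these values are descriptions without a test, since all markers share the same libraries, depths and length trends. Without Hopx, 35 of 36 pairs were above 0. The closest pair after removing the group means was Fabp7 and Slc1a3 (r = 0.87; over log2 CPM r = 0.81, Spearman's rho = 0.67, and r = 0.77 without the 2 libraries farthest from the median of Fabp7). By rank the order differed, with the highest rho for Sox1 and Slc1a3 (rho = 0.87, r = 0.66, and r = 0.79 without the 2 farthest libraries). Sox1 was close to Sox2 (0.80) and Nes (0.80) in r after removing the group means. Sox2 and Nes were less close to each other (0.47 after removing the group means). Over log2 CPM this pair had r = 0.60 and rho = 0.54, and r = 0.30 without the 2 libraries farthest from the median of Sox2. The relation of Sox1 and Sox2 over log2 CPM (r = 0.74, rho = 0.65) rested in part on 2 libraries, as r was 0.32 without those farthest from the median of Sox1. Hopx ran against Vim (r = -0.63, and -0.30 without the 2 farthest libraries) and Nes (r = -0.56, and -0.15 without them) and was below 0 in 7 of its 9 pairs, at the low counts given above.

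**Figure D3:**
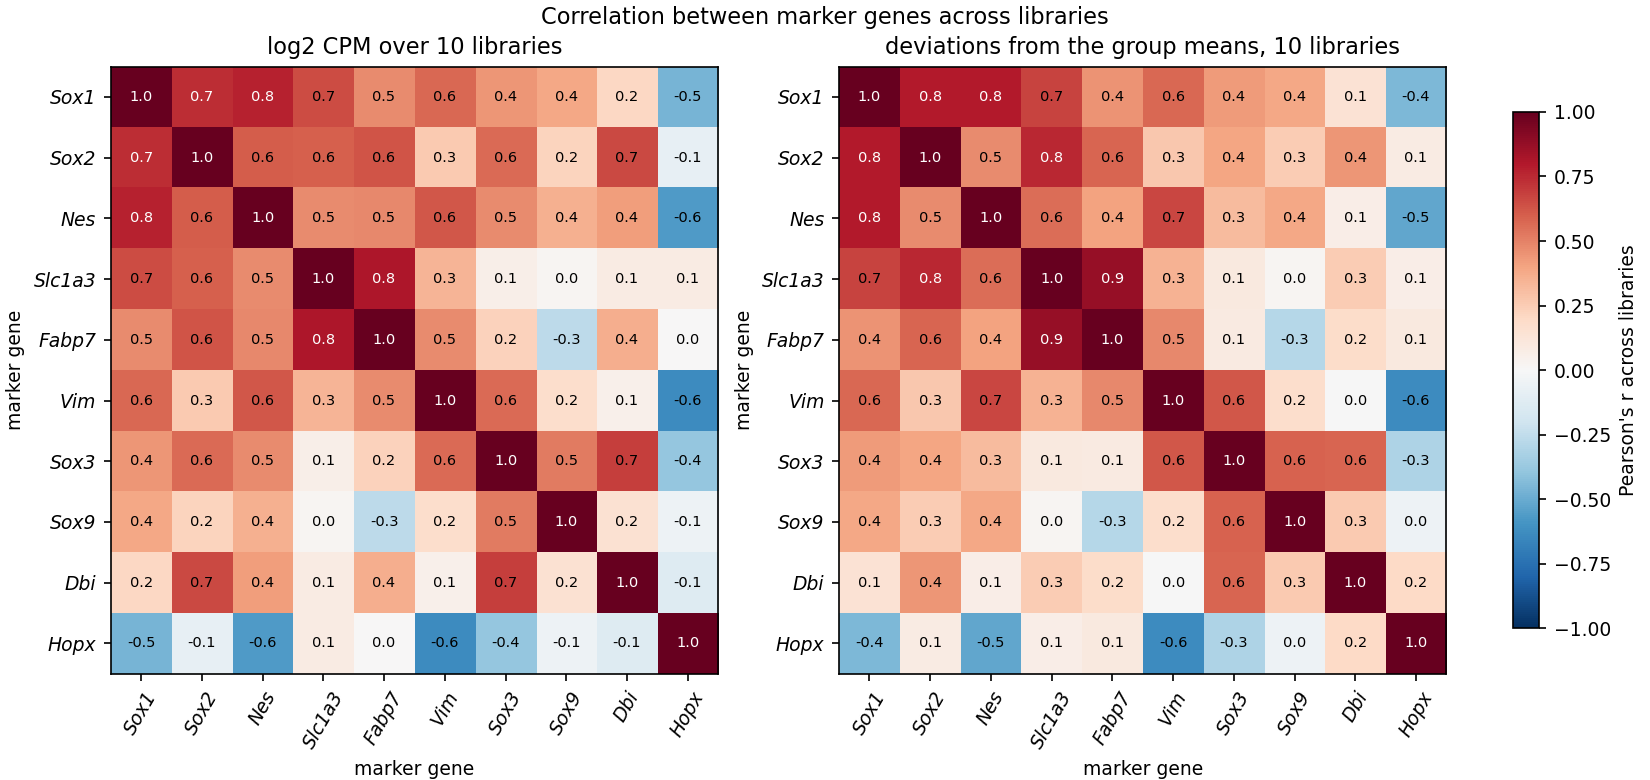
Pearson's r between marker genes across 10 libraries, for log2 CPM on the left and for deviations from the group means on the right. Red is positive and blue negative. Pairs among Sox1, Sox2, Nes, Slc1a3 and Fabp7 are all positive, as are 35 of the 36 pairs without Hopx on the left. Hopx runs against Vim and Nes.

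Vim varied with genes of cycling cells. Against the mean standardized level of 23 genes of cycling cells, such as Mki67, Top2a and Pcna, Vim had r = 0.93 and rho = 0.89 over the 10 libraries, and r = 0.71 without the 2 libraries farthest from the median of that list. This was not particular to cycling cell genes. Against 25 further radial glia and progenitor genes Vim had r = 0.86 and rho = 0.79 (r = 0.63 without the 2 farthest libraries). Against 13 genes of neurogenic precursors it had r = 0.80 and rho = 0.67 (r = 0.39 without them). Among 11286 other tested genes with a mean of at least 5 CPM, those with the log2 CPM pattern most like that of Vim were the kinetochore gene Spc25 (r = 0.98), the mitotic ubiquitin-conjugating gene Ube2c (0.98), the mitotic kinase gene Cdk1 (0.96), the G protein subunit gene Gng5 (0.96) and the Cdk-binding gene Cks2 (0.96). Wild-type 2 and deletion 6, the low libraries for Vim, were also the low libraries for the cycling cell list, at -1.48 and -1.32 standard units. Of the 23 genes, 16 had a lower deletion mean (median log2 fold change -0.09; 10 and 0.01 without deletion 6), and 0 passed edgeR (1 had an unadjusted p under 0.05), limma-voom or DESeq2, which gave 14 an adjusted p. Those with the smallest p were Pcna, the clamp of DNA replication (log2 fold change -0.19, SE 0.08), the cyclin gene Ccnd1 (-0.21, SE 0.11) and Tyms, of thymidylate synthesis (-0.26, SE 0.15). Nes (r = 0.64) and Sox1 (r = 0.49) were less close to the list, and Hopx ran against it (r = -0.68, rho = -0.72, and r = -0.37 without the 2 farthest libraries).

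The pattern of Sox2 was matched most closely by Hmox1 (r = 0.89), which encodes haem oxygenase, Tsc22d3 (0.85), a gene induced by glucocorticoids, Ttc30a1 (0.84), Chgb (0.82) and Sdccag8 (0.82). That of Dbi was matched by genes of short transcripts: Tmem160 (r = 0.98), Cox8a of respiratory complex IV (0.97), Pde6d (0.97), Ndufs6 of complex I (0.95) and Mrpl52 of the mitochondrial ribosome (0.93), whose longest transcripts run from 550 to 1306 bases. For the mean standardized level of all 10 markers near genes were Apex2 (0.89), Col5a1 (0.86), Ptprr (0.83) and Mrps23 (0.82). All of these r are over 10 libraries and were chosen as among the highest of 11286, so they are descriptions only.

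**Figure D4:**
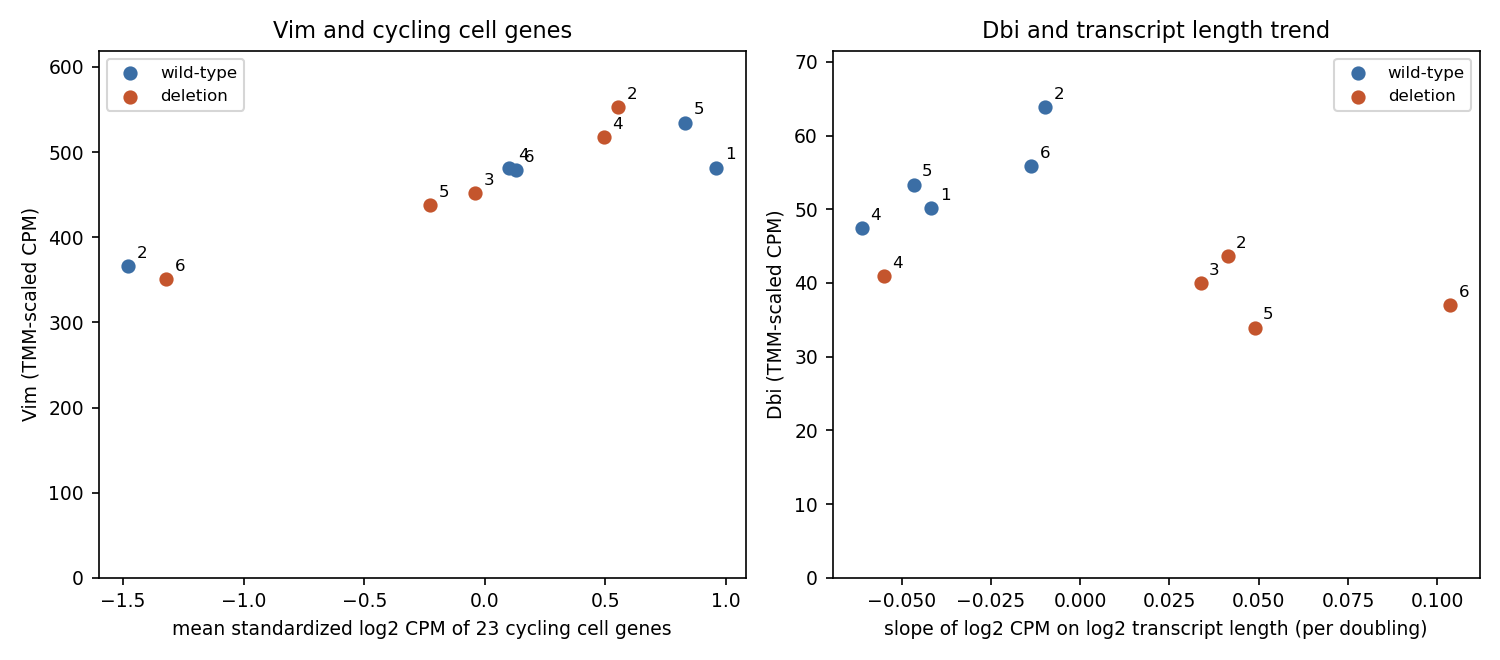
Left, Vim (TMM-scaled CPM) against the mean standardized log2 CPM of 23 cycling cell genes; right, Dbi (TMM-scaled CPM) against each library's slope of log2 CPM on log2 transcript length. Points are libraries with their replicate number. Vim falls with the cell cycle genes in wild-type 2 and deletion 6, and deletion 4 lies in the wild-type range of slopes with Dbi at 40.9 CPM. Over all 10 libraries, log2 CPM of Dbi had r = -0.58 with the slope.

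Other genes of progenitors showed no shift past the test. Of 25 further radial glia and progenitor genes, 15 were lower and 10 higher in deletion libraries; their median on the log2 scale was -0.04 (0.0049 without deletion 6), and 0 passed edgeR (4 had an unadjusted p under 0.05) or limma-voom. DESeq2 called 1 of the 20 to which it gave an adjusted p, beside 3.28% of all genes with one. This was Ptn, a secreted growth factor made by radial glia. It averaged 527 ± 53.3 CPM in wild-type and 434 ± 45.3 CPM in deletion libraries (SD, n = 5). Its edgeR log2 fold change was -0.28 (SE 0.08, edgeR adjusted p = 0.160). Next by p-value came Fzd10, a receptor for Wnt ligands (-0.27, SE 0.12), and Notch1, a receptor that keeps progenitors undifferentiated (0.24, SE 0.11). Neither passed in edgeR over all libraries. Without deletion 4, Fzd10 passed at -0.41 (SE 0.08, edgeR adjusted p = 0.00979), in a fit that called 2.31% of all genes. That fit leaves out the library that differed most from its own group, as given under processing.

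Genes of progenitors on the way to becoming neurons had lower means in 12 of 13 cases, with a median log2 fold change of -0.15 (-0.08 without deletion 6). None passed edgeR (1 had an unadjusted p under 0.05), limma-voom or DESeq2, which gave 10 an adjusted p. Hes6, which promotes neuronal differentiation, averaged 95.2 ± 8.06 CPM in wild-type and 79.7 ± 13.2 CPM in deletion libraries (-0.25, SE 0.09, with an edgeR adjusted p of 0.289). It passed without deletion 4 (-0.35, SE 0.07, edgeR adjusted p = 0.0142), in a fit that called 2.31% of all genes. The proneural gene Neurog2 (-0.28, SE 0.16) and the antiproliferative gene Btg2 (-0.24, SE 0.14) came next by p-value. Of 15 neuron markers, 11 had a higher and 4 a lower deletion mean, and the median was 0.06 on the log2 scale. With the length trend removed, 6 of the 15 were lower (median 0.05), and 7 were lower without deletion 6 (median 0.05). Their median transcript length was 4149 bases. Of the 15, 0 passed edgeR (4 had an unadjusted p under 0.05), DESeq2 or limma-voom. Myt1l, a repressor of non-neuronal genes, led them (0.20, SE 0.07, edgeR adjusted p = 0.229), followed by the synaptotagmin gene Syt1 and the tau gene Mapt (0.16 and SE 0.07 for each). Without deletion 4, Myt1l stood at 0.24 (edgeR adjusted p = 0.0274), in the same fit with 2.31% of all genes called. With the length trend removed over all libraries, Myt1l, Syt1 and Mapt stood at 0.13, 0.12 and 0.12.

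Relatives of Dbi and Fabp7 in lipid binding were looked at beside them. Of 14 listed, 12 were tested; 8 were lower and 4 higher, the median log2 fold change was -0.01 (-0.04 with the length trend removed, 0.0075 with GC as well, and -0.09 without deletion 6). None passed edgeR (1 had an unadjusted p under 0.05), limma-voom or DESeq2, which gave 9 an adjusted p. Fabp5, the epidermal fatty acid-binding protein, had the smallest p, with averages of 207 ± 12.5 CPM in wild-type and 177 ± 17.1 CPM in deletion libraries (SD, n = 5). Its log2 difference was -0.22 (SE 0.07, edgeR adjusted p = 0.186). Fabp5 passed without deletion 4 (-0.28, SE 0.06, edgeR adjusted p = 0.00932), in a fit that called 2.31% of all genes. Fabp3 (-0.23, SE 0.12) and Eci2 (-0.21, SE 0.11), which carries an acyl-CoA-binding domain, did not pass. With the length trend removed, Fabp3 had a log2 fold change of -0.08 (SE 0.11), Eci2 -0.19 (SE 0.10) and Fabp5 -0.22 (SE 0.06). The other acyl-CoA-binding genes Acbd3, Acbd4, Acbd5 and Acbd6 had log2 fold changes of 0.05, -0.0011, -0.0068 and -0.14.

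Several markers are also made outside the neural lineage, Vim above all, in blood vessels, meninges and microglia. Endothelial markers summed to 198 to 245 CPM across wild-type and 207 to 238 CPM across deletion libraries, with 7 of 12 lower. Meningeal markers summed to 99.4 to 118 and 103 to 117 CPM, with 3 of 8 tested lower. Most of this sum was Igf2, which averaged 66.8 CPM in wild-type and 67.0 CPM in deletion libraries. Lum and Aldh1a2 averaged 0.0418 and 0.0862 CPM in the wild-type group. Microglial markers summed to 53.4 to 60.02 and 50.5 to 58.1 CPM, with 7 of 12 lower, and pericyte markers to 167 to 196 and 178 to 191 CPM, with 5 of 8 lower. Red blood cell genes summed to 1699 to 2555 and 2234 to 2981 CPM, with 7 of 7 tested higher. 0 genes of these lists passed edgeR or limma-voom, while 3 microglial markers, 1 endothelial, 1 pericyte, 1 meningeal and 1 red blood cell gene had an unadjusted p under 0.05 in edgeR. DESeq2 gave an adjusted p to 0 of the microglial markers, 4 endothelial, 4 pericyte and 1 meningeal marker and 5 red blood cell genes, and called 0 of those. The part of these cell types in the levels of Vim and the other markers was not tested. The choroid plexus gene Ttr stood at a mean of 0.0105 CPM in wild-type libraries, and Gfap, the filament of mature astrocytes, at 0 counts there. Otx2 and Foxj1, listed with Ttr as choroid plexus and ependymal genes, stood at 197 and 15.98 CPM in those libraries.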

How the data were processed

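RNA-seq gene counts were analysed for 10 midbrain libraries, 5 per genotype. The authors deposited whole-number counts per Entrez gene ID, not normalized; reads were processed with HISAT2 and featureCounts on mm39, per the submitters' processing notes. For versions, annotation, strand setting and multi-mapping reads, nothing is given in the sources used here. Of 30935 IDs, 30648 had a symbol in the RefSeq table (GRCm38.p6), and the others held 0.0116% of counts. Totals ran from 16246892 to 20255728 counts. The parts of depth and of the spread between 5 libraries in the precision were not tested. No library looked like a duplicate: between libraries of one group, chi-square per degree of freedom was at least 5.81, where sampling noise gives about 1. Deletion 4 stood apart in its group, at 20.6 to 33.1 against each other deletion library. Pairs among those other deletion libraries ran from 5.81 to 10.7, and wild-type pairs from 6.65 to 16.9. Nothing states separate litters, so p-values measure the spread between these samples.

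Counts were tested with edgeR 4.0.16 (R 4.3.3): filterByExpr, TMM, a robust quasi-likelihood fit with genotype as the only term, a two-sided F test and Benjamini-Hochberg adjustment over all 15288 genes. The standard error is the fold change divided by the square root of F. Log2 CPM used a prior count of 2. Length and GC content are those of the longest GENCODE M21 transcript (92.4% of tested genes). Each trend was an offset from a natural spline (4 degrees of freedom) in length, or in length and GC, over genes above a mean log2 CPM of 3. The fit was tested on simulated counts. Alternatives were RLE and upper-quartile scaling, other filters, a replicate block, a Y-linked covariate, DESeq2 1.42.0, limma-voom (limma 3.58.1), removal of length trends, and leaving out each library.

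RefSeq promoter entries (GRCm38.p6, another build than the counts) were found for 8 of the 10 markers; overlap with exons was read from GENCODE M21. Markers, lists and alternatives were chosen with earlier results of these data known. Genes named are the 10 markers, in each list those that passed or the 3 with the smallest p (other list members given are examples by family), and the 5 nearest patterns of Sox2, Vim, Dbi and the marker mean. A result that this rule gave is not reported here. In the lists of other cell types only counts, sums and some of the markers are given.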

Additional observations from a re-analysis of the deposited data

Results flagged for a closer look

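Hopx in deletion 4 stood at 0.893 CPM, apart from the other 4 deletion libraries, of which the nearest stood at 1.29 CPM. The gap was 0.795 of the whole range of the group, above the critical value of 0.71 for 5 samples in Dixon's test. With 15 to 28 counts per library behind Hopx, and 20 such groups examined, about 1 in 20 groups is expected to be flagged by chance.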

How the results depend on the processing

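Hopx had 15 to 28 counts per library, while each other marker had at least 347. What limited the detection of a difference in each marker was not tested. The count of genes passing over all genes was 9; it was 15 with upper-quartile factors, 69 without a filter, 268 with DESeq2, 18 with trends on length and GC removed, and 0 with limma-voom, with the length trend removed, with the replicate block, and with the block and both trends removed. It ranged from 0 to 357 when a library was left out. The count of markers passing was 1; it was 0 with the replicate block, with the length trend removed, with trends on length and GC removed (with or without the block) and with limma-voom, and ranged from 0 to 1 when a library was left out. Under the replicate block Dbi had a log2 fold change of -0.50 (adjusted p = 0.502). Deviations of same-numbered libraries correlated at -0.0068, -0.0053, -0.10 and 0.12. The labels name no litter, and whether same-numbered libraries are paired was not tested beyond these values. Apart from Dbi, 0 markers passed in any alternative (edgeR variants, DESeq2 and limma-voom). Dbi, Sox2, Sox3, Nes and Hopx kept their direction in every alternative that gave a value; DESeq2 gave Hopx no adjusted p.

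Signs turned for values near 0. When a library was left out, Sox9 ranged from -0.061 to 0.039, Slc1a3 from -0.065 to 0.088, Vim from -0.10 to 0.065 and Sox1 from -0.18 to 0.066. With the replicate block, Sox9 was 0.014 and Slc1a3 -0.079, and with the Y-linked covariate Sox9 was 0.00027. With the length trend removed, Fabp7 was 0.051 and Slc1a3 -0.0033. With trends on length and GC removed, Fabp7 was 0.10 and Vim 0.012; with the block as well, they were 0.029 and 0.023, Slc1a3 was -0.092, Nfix -0.0076, Slc1a4 -0.011 and Crabp2 0.082. The cause of these turns was not tested.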

Other observations

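Other families beside the markers were compared in the same edgeR fit. Of 14 tested Sox genes outside the markers, 9 were higher and 5 lower in deletion libraries, and the median was 0.02 on the log2 scale (-0.0018 with the length trend removed); 0 passed edgeR, limma-voom or DESeq2, which gave 8 an adjusted p, and 0 had an unadjusted p under 0.05 in edgeR. The SOXC genes Sox11 and Sox4, which act in new neurons, stood at 1512 and 1082 CPM in the wild-type group, with log2 fold changes of -4.52e-05 and -0.04. Sox21, a SOXB relative that acts against Sox2, had one of -0.08 (SE 0.08). Sox30, Sox17 and Sox10 had the smallest p of the family (log2 fold changes 0.93, -0.26 and 0.45; SE 0.50, 0.18 and 0.32), all at means under 7 CPM.

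Of 15 tested early astroglial genes, 11 had a higher deletion mean, the median log2 fold change was 0.09 (0.04 with the length trend removed and 0.03 with GC as well), and 0 passed edgeR, limma-voom or DESeq2, which gave 14 an adjusted p (0 had an unadjusted p under 0.05 in edgeR). Slc1a2, the other main glial glutamate transporter, averaged 184 ± 7.63 CPM in wild-type and 199 ± 20.4 CPM in deletion libraries (SD, n = 5; log2 fold change 0.11, SE 0.07). The gliogenic factor genes Nfia (0.16, SE 0.10) and Nfix (0.11, SE 0.08) came next by p-value. With the length trend removed these became 0.02 for Slc1a2 (SE 0.05), 0.07 for Nfia (SE 0.09) and 0.07 for Nfix (SE 0.07), and Nfix was 0.03 with GC as well. Of the 5 other tested genes of the Slc1a transporter family, 4 were higher, with Slc1a4 at 0.08 (SE 0.08) and Slc1a1 at 0.10 (SE 0.10), and 0 passed edgeR, limma-voom or DESeq2, which gave 3 an adjusted p (0 had an unadjusted p under 0.05 in edgeR). Slc1a3 followed the early astroglial list across the 10 libraries (r = 0.84, rho = 0.75, and 0.66 without the 2 libraries farthest from the median of the list), a description without a test. It followed the endothelial list about as closely (r = 0.77, rho = 0.83, and r = 0.72 without the 2 libraries farthest from the median of that list). Fabp7 was also close to the endothelial list (r = 0.69, rho = 0.71, and r = 0.85 without those 2). Of 11 other intermediate filament genes, 7 were higher and 0 passed edgeR, limma-voom or DESeq2, which gave 6 an adjusted p (1 had an unadjusted p under 0.05 in edgeR). The neuronal filament genes Nefm (0.22, SE 0.10, edgeR adjusted p = 0.453) and Ina (0.14, SE 0.07, edgeR adjusted p = 0.492) had the smallest p. Both are also on the neuron list, as is Nefl, which stood at 0.06 (SE 0.10). With the replicate block and both trends removed, Nefm was 0.05 (SE 0.08) and Ina 0.11 (SE 0.06). The lamin gene Lmna had the next smallest p (-0.17, SE 0.10). Of 8 oligodendrocyte precursor markers 6 were higher (median 0.12), and of 4 tested choroid plexus and ependymal genes 2 were; 0 of either list passed edgeR or limma-voom, and 1 of each had an unadjusted p under 0.05 in edgeR. DESeq2 gave an adjusted p to 2 and 1 of them and called 0. Foxj1, the regulator of motile cilia, averaged 15.98 ± 2.11 CPM in wild-type and 12.3 ± 1.23 CPM in deletion libraries (SD, n = 5; a log2 difference of -0.38, SE 0.12, adjusted p = 0.207).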
